A study of Rattus norvegicus with 18 samples.

Results

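Gene expression around polycaprolactone (PCL) scaffolds loaded with nanoparticles that combine chitosan with amorphous calcium phosphate (ACPC-NP) was compared with that around the other scaffolds of the same study, 2 weeks after implantation into rats. The comparison holds 9 of the 18 libraries of the series. It sets the 3 ACPC-NP libraries against the mean of 2 groups of 3, PCL with calcium phosphate microparticles (CaP) and bare PCL, so that both other scaffolds weigh the same. All scaffolds were 3D printed and placed in a radius defect too large to heal unaided, in animals whose genotype is given only as wild type, and for which the labels add no strain, sex or age. The tissue reached 1 mm beyond each end of the implant, marrow and bone cells were freed with enzymes and pooled after red cells had been lysed, and polyadenylated RNA was sequenced. Nothing in the labels ties a library to an animal, so p-values measure a spread between libraries that may be technical in part. Chitosan, the size of the particles and the kind of mineral change together between these scaffolds and cannot be told apart.

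An implant in bone is met first by neutrophils and monocytes, and monocyte-derived macrophages then take up particles and debris and release chemokines that bring in further cells. Under other signals the same lineage fuses into osteoclasts, which dissolve mineral with acid and matrix with cathepsins, while osteoblasts lay down collagen and mineralise it. Macrophages in wounds also remodel their arginine, iron, lipid and glucose metabolism, and the enzymes Nos2 and Arg1 draw on arginine for different products. In bulk RNA, more cells of a type and more RNA per cell cannot be told apart, and this holds for every value that follows.

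At week 2, 13 of 22 chemokines, 13 of 25 lysosomal genes, 7 of 15 osteoclast markers and 6 of 16 matrix proteases and inhibitors were higher around ACPC-NP, while of the osteoblast and collagen genes only Spp1 was called. Most of these calls needed 1 of the 3 ACPC-NP libraries, replicate 3: without it no osteoclast, protease or lysosomal gene and 2 chemokines were called. The values below are differences on the log2 scale (ACPC-NP minus the mean of CaP and PCL) ± their standard error. They come from an edgeR model of all 18 libraries. Levels are in CPM, a library's counts scaled by its total count times its TMM factor (edgeR's scaling for differences in composition between libraries). A gene is called when its p-value, adjusted over all 11814 genes tested, is under 0.05. By this rule 577 genes rose, 4.88% of those tested, and 13 fell, 0.11%. At an unadjusted p under 0.05 there were 1761 higher and 520 lower genes. The median difference over all genes was -0.02, and 46.9% of genes lay above 0. Every list count in this report is to be read beside these shares, 4.88% higher and 46.9% above 0.

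The ACPC-NP libraries were unlike each other. Total counts of the 9 libraries were close, from 23627362 to 25622793. ACPC-NP replicate 3 lay at 91.4 on the first principal component of the 9 libraries, which held 49.5% of their variance, and the other 8 lay between -26.4 and 15.5. Its TMM factor was 0.706 against 1.01 to 1.05. This low factor makes all CPM of replicate 3 higher than scaling to total counts alone would. When it was left out, 10 of 11943 genes rose (0.0837%) and 0 fell, with 578 higher and 245 lower at an unadjusted p under 0.05. DESeq2 called 80 and 4 and voom with quality weights 73 and 3 on the same 8 libraries. A fit of the 9 week 2 libraries alone, which estimates the spread from fewer libraries, called 4 genes higher (Gal, Mmp12, Il18bp and Bend6) and 0 lower, all 4 among the 577. The main results below are therefore given with and without this library.

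All 577 genes kept their sign without replicate 3, and 439 of them had an unadjusted p under 0.05. That the calls used the same other libraries favours this. Of all 11814 genes tested, 5396 lay above 0 without replicate 3, and 574 of these had such a p. The median difference of the 577 was 1.65 with replicate 3 and 0.65 without it. The number that differed by at least 1 went from 469 to 160. Replicate 3 was above all 6 CaP and PCL libraries for 577 of these genes, against 32.6% of all genes. Replicate 2 was above them for 550 (95.3%, against 15.6%) and replicate 1 for 363 (62.9%, against 15.05%). For 358 genes all 3 ACPC-NP libraries lay above all 6 others, where 5.8% of all genes tested did. Replicate 3 was the highest of the 3 for 560 genes and replicate 1 the lowest for 481. These are descriptions of the libraries that made the calls. So is every later statement that the ACPC-NP libraries of a called gene lay above or below the others.

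**Figure D1:**
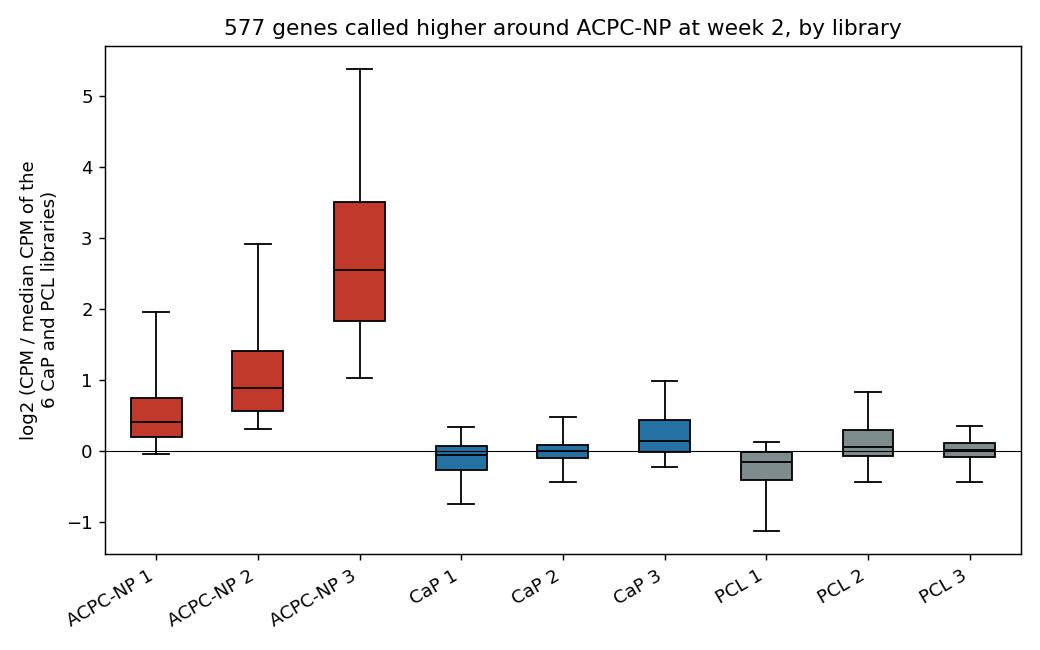
The 577 genes called higher, by week 2 library. Each box gives the quartiles and median over genes of the log2 ratio of a library's CPM to the median CPM of the 6 CaP and PCL libraries, and whiskers reach the 5th and 95th percentile. The median is 0.41 in ACPC-NP replicate 1, 0.88 in replicate 2 and 2.55 in replicate 3.

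**Figure D2:**
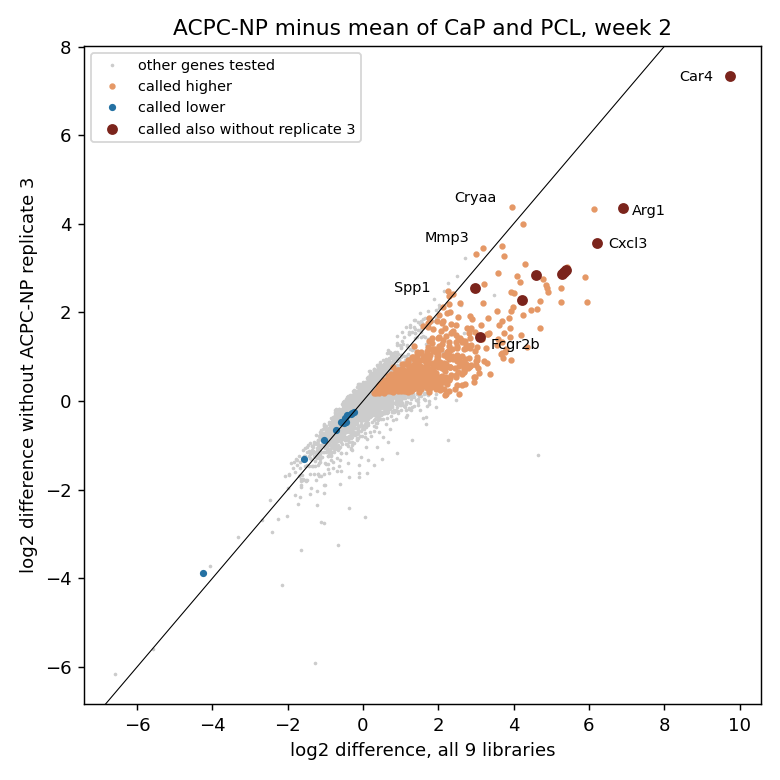
Difference of each gene tested with all 9 week 2 libraries (x axis, log2) and without ACPC-NP replicate 3 (y axis, log2); the line marks equal values. Most called genes lie below the line, while Spp1, Mmp3 and Cryaa lie above it and Car4, Arg1 and Cxcl3 are far from 0 on both axes.

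The 10 genes called also without replicate 3 were Arg1, Irg1, Il1rn, Cxcl3, Ccl4, F3, Cd274, Fcgr2b, Car4 and Gal. In each of them all 3 ACPC-NP libraries lay above all 6 others. The same held for 62.0% of the genes called higher and 5.8% of all genes tested. Choosing the 10 by calls made on these same libraries favours such separation, so it is given only as a description. Arg1, which splits arginine into ornithine and urea, stood at 21.1, 176 and 1540 CPM in ACPC-NP replicates 1, 2 and 3. In the 6 other libraries it ranged from 1.46 to 9.86 with a median of 4.54. The lowest ACPC-NP library was thus above the highest of the others, and the difference was 6.91 ± 0.97 (adjusted p = 0.00625), or 4.35 without replicate 3 (adjusted p = 0.0417). Irg1, the enzyme that makes the antibacterial metabolite itaconate, stood at 17.9, 95.2 and 802 CPM against 4.44 to 14.0. Its difference was 5.40 ± 0.77, or 2.96 without replicate 3, and here too the groups did not overlap. Il1rn, the antagonist that blocks the interleukin 1 receptor, was abundant, at 282, 1061 and 6396 CPM against 106 to 166. It differed by 4.22 ± 0.62, or 2.27 without replicate 3 (adjusted p = 0.0485).

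Secreted and surface molecules made up most of the other genes of this set. Cxcl3, a chemokine that draws neutrophils, was at 19.7, 149 and 1402 CPM against 2.53 to 13.7, a difference of 6.22 ± 0.84 (3.58 without replicate 3). Ccl4, a chemokine for monocytes and T cells, was at 8.66, 42.6 and 207 CPM against 2.07 to 5.86, a difference of 4.60 ± 0.63 (2.85 without replicate 3). ACPC-NP replicate 1 was the lowest of the 3 in both, and still above the 6 others. F3, tissue factor, which starts the clotting cascade, was at 8.66, 22.9 and 221 CPM against 1.34 to 3.40, a difference of 5.30 ± 0.70 (2.88 without replicate 3). Cd274, the ligand of the T cell checkpoint receptor Pdcd1, was at 6.65, 38.9 and 322 CPM against 2.38 to 4.35. Its difference was 5.35 ± 0.72, or 2.92 without replicate 3, with an adjusted p of 0.019 there. Fcgr2b, the inhibitory receptor for immunoglobulin G, was at 94.8, 200.4 and 1084 CPM against a narrow range of 49.1 to 59.8, and differed by 3.10 ± 0.48 (1.46 without replicate 3).

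Car4 and Gal had low levels around the other scaffolds. Car4, a carbonic anhydrase on the outer cell surface, stood at 3.74, 71.8 and 522 CPM against 0.0766 to 0.583. Its difference of 9.74 ± 1.23, or 7.34 without replicate 3, rests on few counts around CaP and PCL. Of the 10 carbonic anhydrases tested Car4 alone was called, and the list's median was -0.27 (0.08 by voom). Car2, the cytosolic form that makes the acid of osteoclasts, was at 1419, 1071 and 622 CPM against 822 to 1793, and did not pass the test (-0.37 ± 0.23, adjusted p = 0.391). Gal, the neuropeptide galanin, was at 10.3, 6.11 and 16.6 CPM against 0.805 to 2.22. Gal was the member least tied to replicate 3, with a difference of 2.97 ± 0.41 (adjusted p = 0.00559) and of 2.55 without that library (adjusted p = 0.0417). Gal was also among the 4 genes called from the week 2 libraries alone.

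**Figure D3:**
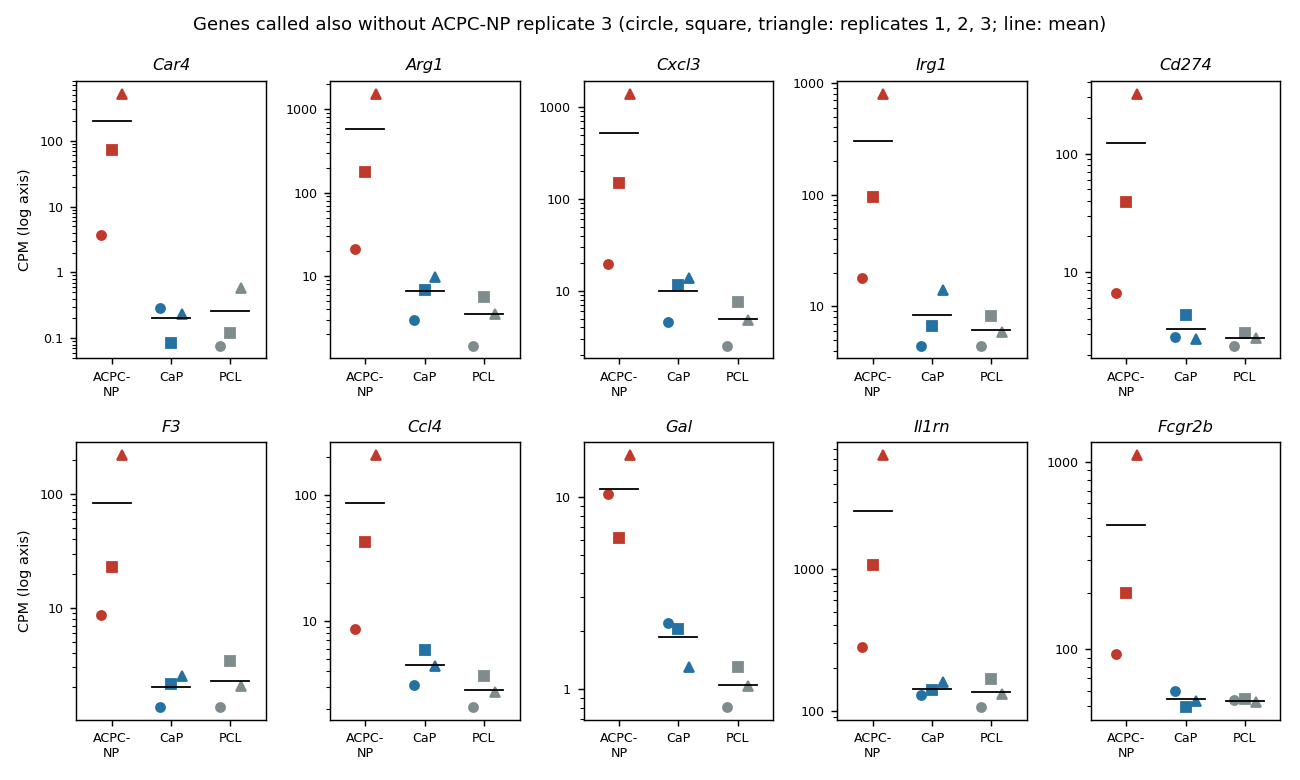
Levels (CPM, log axis) of the 10 genes called with and without ACPC-NP replicate 3, in each week 2 library, by scaffold. Each point is a library and each line a group's mean. All 3 ACPC-NP points lie above the 6 others in every panel, which the choice of these genes favours. Replicate 3 (triangle) is the highest.

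Promoters of these genes were read for motifs of factors that act in activated or oxygen-starved macrophages. RefSeq gives the window from 250 bases before to 50 after the start (build GRCr8) for 5 of the 10: Cd274, Car4, Irg1 (as Acod1), Gal and Il1rn. F3, Cxcl3, Fcgr2b, Ccl4 and Arg1 were not matched. On both strands, TGANTCA (AP-1), TTGCNNAA (C/EBP), ACGTG (the core of the hypoxia element) and an NF-kB motif (GGGA, any 4 bases, CC) were searched. Among 33469 promoters of the same length 7.33%, 10.6%, 19.3% and 19.3% hold them. The windows of Car4 and Gal are shown because they are the only 2 of the 5 with a match, with the matched letters in capitals on either strand. The Car4 window (chr10:70325108-70325407, plus strand) has ACGTG 237 and 21 bases before the start. The Gal window (chr1:210084523-210084822, minus strand) has the NF-kB motif 57 and ACGTG 5 bases before the start. The windows of Cd274, Irg1 and Il1rn hold these letters nowhere.
Car4: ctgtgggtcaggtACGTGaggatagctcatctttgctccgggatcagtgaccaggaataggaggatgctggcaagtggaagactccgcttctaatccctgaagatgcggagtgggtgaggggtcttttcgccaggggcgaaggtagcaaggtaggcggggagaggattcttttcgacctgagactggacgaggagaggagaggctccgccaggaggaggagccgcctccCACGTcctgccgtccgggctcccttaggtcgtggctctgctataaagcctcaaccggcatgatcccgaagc
Gal: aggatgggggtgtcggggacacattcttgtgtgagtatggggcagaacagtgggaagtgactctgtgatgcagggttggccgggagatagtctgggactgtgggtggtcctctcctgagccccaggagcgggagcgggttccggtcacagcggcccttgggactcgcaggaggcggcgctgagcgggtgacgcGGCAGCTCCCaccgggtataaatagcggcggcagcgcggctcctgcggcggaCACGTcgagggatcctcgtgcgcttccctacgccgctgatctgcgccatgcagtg
A match is a run of letters and not a site shown to be used.

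In 17 of the 577 genes replicate 3 was not the highest ACPC-NP library, a set chosen after the values were seen. In 14 of the 17 all 3 ACPC-NP libraries lay above the 6 others, as in 358 of the 577 and 5.8% of all genes tested. Calls made on these same libraries favour this. Several of the 17 encode products of bone-resorbing or matrix-degrading cells. Spp1, osteopontin, a secreted phosphoprotein that binds mineral and osteoclast integrins, stood at 2773, 3114 and 2239 CPM around ACPC-NP. Around the other scaffolds it ranged from 260 to 1039 with a median of 477. The 3 ACPC-NP libraries were alike and all above the others, and the difference was 2.27 ± 0.48 (adjusted p = 0.0194), or 2.38 without replicate 3 (adjusted p = 0.152). Ccl9, a chemokine that osteoclasts and their precursors make and sense, was at 219, 102 and 146 CPM against 8.05 to 58.1 (2.39 ± 0.59). Mmp3 and Mmp10, the stromelysins, were highest in replicate 1. Mmp3 was at 116, 21.9 and 30.9 CPM against 1.23 to 9.31 (3.18 ± 0.76, and 3.46 without replicate 3). Siglec15, a receptor of differentiating osteoclasts, was at 5.35, 2.76 and 4.72 CPM against 0.575 to 1.34 (2.28 ± 0.49). Pcsk1, a protease that trims neuropeptide precursors, was at 12.3, 6.51 and 8.48 CPM against 1.42 to 4.39 (1.72 ± 0.43). Cxcl10 and Cxcl11, interferon-induced chemokines for T cells, formed another pattern: Cxcl10 was at 3.78 CPM in replicate 1, just below the range of the others (3.91 to 5.08), and at 32.7 and 31.0 in replicates 2 and 3. Others of the 17 were Cryaa, Cpxm1, Cd163l1, Klra5, Dgki, Slc47a1, Cdk18 and Mpzl3.

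Osteoclast genes rose in part. Of 15 osteoclast markers tested, 7 rose and 0 fell, and 12 lay above 0 and 3 below, Car2 among the latter. The median was 0.77 (0.46 without replicate 3, and then 0 called) beside -0.02 over all genes. Nfatc1, the factor that drives osteoclast formation, stood at 98.3, 86.0 and 109 CPM against 62.9 to 69.3. This is a small difference with little spread, 0.56 ± 0.10 (adjusted p = 0.0116), and 0.46 without replicate 3. Acp5, the acid phosphatase used to stain osteoclasts, was at 319, 216 and 392.1 CPM against 120 to 201, a difference of 1.04 ± 0.24 (adjusted p = 0.0265) and of 0.83 without replicate 3. Oscar, a co-stimulatory receptor, and Tcirg1, a subunit of the proton pump, differed by 2.76 ± 0.57 and 1.03 ± 0.23, or by 1.65 and 0.48 without replicate 3. Replicate 1 of Oscar, at 3.82 CPM, lay inside the range of the others (2.81 to 6.53). Itgb3, Clcn7 and Siglec15 were the other called members. Ctsk, the collagen-degrading cathepsin of the resorption pit, was at 599, 290 and 448 CPM against 76.2 to 199.8. Its ranges did not overlap either, yet it did not pass (1.78 ± 0.51, adjusted p = 0.0587). The summed level of the 15 markers, of which Car2 and Mmp9 are the most abundant, was 3960, 3031 and 3487 CPM against 2509 to 3303. Without the TMM scaling the sum of replicate 3 would lie below the range of the others.

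Some matrix proteases rose, and of the collagen and osteoblast genes only Spp1 did. Of 16 proteases and inhibitors 6 rose and 0 fell, 10 lay above 0 and 6 below, and the median was 1.34 (0.83 without replicate 3, and then 0 called). Mmp12, the elastase of macrophages, stood at 487, 438 and 651 CPM against 17.5 to 65.1. The 3 ACPC-NP libraries were alike and all far above the highest of the others, and the difference was 3.70 ± 0.65 (adjusted p = 0.0108), or 3.50 without replicate 3 (adjusted p = 0.112). Mmp14, the membrane-bound collagenase, differed by 2.53 ± 0.53 (1.91 without replicate 3), Mmp19 by 2.30 ± 0.42 (1.34) and the inhibitor Timp2 by 1.36 ± 0.33 (0.74). Of 18 osteoblast and osteocyte genes, Spp1 alone rose and 0 fell, and the median was -0.13 (0.07 without replicate 3 and by voom). Runx2, which commits cells to the osteoblast lineage, was at 40.8, 40.4 and 38.7 CPM against 34.8 to 45.8, a difference of 0.03 ± 0.12. Col1a1, the main collagen of bone, was at 20201, 21172 and 7546 CPM against 10960 to 25367. Replicate 3 was below all others here, and the difference was -0.19 ± 0.35 with it and 0.15 without it. Bglap, osteocalcin, did the same at 413, 340 and 173 CPM against 249.7 to 509 (-0.22 ± 0.36, and 0.06 without replicate 3). Sp7, Ibsp and Alpl differed by -0.30 ± 0.36, -0.48 ± 0.58 and -0.57 ± 0.24, and Alpl, the phosphatase of mineralising cells, was below all 6 others in all 3 ACPC-NP libraries without passing the test (adjusted p = 0.204). Of 10 collagen chains 0 rose and 0 fell (median -0.17, and 0.20 by voom). For the chondrocyte list, 12 of 12 genes lay below 0 with none called, at a median of -1.17 that was 0.25 by voom with quality weights, so its direction depends on the tool. Its summed level ran from 717 to 10404 CPM among the 6 other libraries, with PCL replicate 2 at the top and ACPC-NP at 1808, 2359 and 1158.

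**Figure D4:**
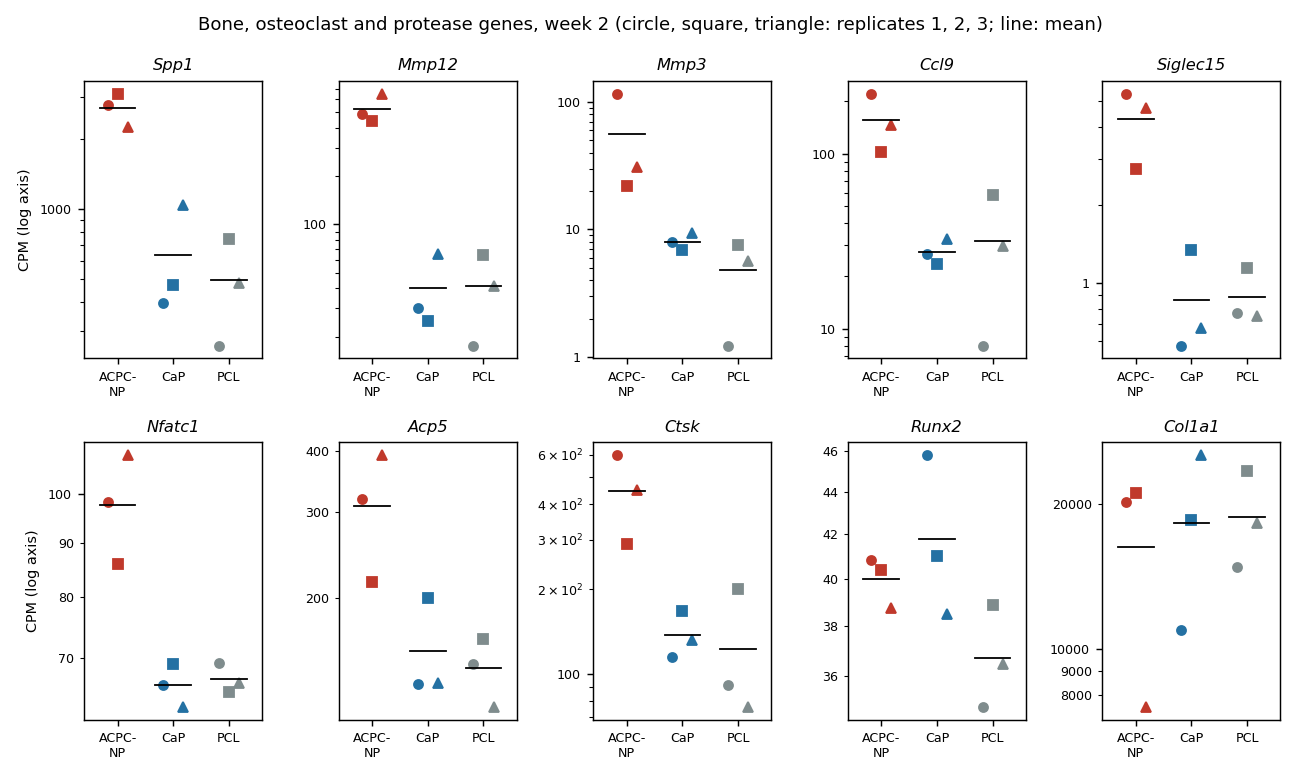
Levels (CPM, log axis) of protease, osteoclast and bone matrix genes in each week 2 library, by scaffold; each point is a library and each line a group's mean. The ACPC-NP points of Spp1, Mmp12, Mmp3, Ccl9, Siglec15, Nfatc1, Acp5 and Ctsk lie above all others, and those of Runx2 and Col1a1 overlap them.

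Genes of lysosomes and of particle uptake were called in part. In the lysosome list 13 of 25 rose and 0 fell, with a median of 0.92 (0.30 without replicate 3, and then 0 called). Gpnmb, a lysosomal membrane glycoprotein of macrophages and osteoclasts, stood at 1064, 2075 and 10021 CPM against 173 to 324. All 3 ACPC-NP libraries were well above the others, at 4.17 ± 0.63 (adjusted p = 0.0066), or 2.68 without replicate 3. The lysosomal proteases Ctsl, Lgmn and Ctsb differed by 3.93 ± 0.62, 2.58 ± 0.43 and 2.07 ± 0.40, which were 2.04, 1.42 and 0.85 without it. Of 16 scavenger and phagocytic receptors 8 rose (median 1.42, and 0.40 without replicate 3, when 1 was called). Msr1, the scavenger receptor that binds modified lipoproteins and particles, was at 32.5, 109 and 275 CPM against 8.49 to 23.7 (3.20 ± 0.47, and 2.22 without replicate 3). Clec4e, which senses damaged cells and mycobacterial lipid, differed by 3.70 ± 0.68 (1.34 without replicate 3), with replicate 1 inside the range of the others. Clec7a, the beta-glucan receptor, differed by 1.49 ± 0.35 (0.50 without replicate 3). Mrc1, the mannose receptor, passed narrowly at 1.19 ± 0.32 (adjusted p = 0.0484, and 0.46 without replicate 3), with replicate 1 inside the range of the others.

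Lipid handling rose in 6 of 15 genes (median 1.39, and 0.59 without replicate 3). Apoe, the lipoprotein that carries cholesterol out of macrophages, was at 1085, 1829 and 4275 CPM against 353 to 841. It was above the 6 others in each ACPC-NP library, with a difference of 2.2 ± 0.41 (1.48 without replicate 3). Fabp5, a fatty acid carrier, was at 118, 130.2 and 488 CPM against 27.6 to 52.4 (2.48 ± 0.43, and 1.49 without replicate 3). Abca1, the cholesterol exporter, and Plin2, the coat of lipid droplets, differed by 3.02 ± 0.54 and 3.79 ± 0.68, with values of 1.21 and 1.18 without replicate 3. General monocyte and macrophage markers rose in 7 of 14 (median 0.87, and 0.37 without replicate 3). Cd68, a lysosomal marker of macrophages, was at 296, 302 and 664 CPM against 136 to 173 (1.45 ± 0.29, and 0.95 without replicate 3). The complement genes C1qa and C1qb, abundant in resident macrophages, were at -0.15 ± 0.26 and -0.20 ± 0.28. The summed level of the 14 markers was 9509, 9007 and 13235 CPM against 8980 to 10060. Replicates 1 and 2 lay within the range of the others and replicate 3 above it. Without the TMM scaling, whose factor for replicate 3 was 0.706, its sum too would lie within that range. On total counts 5 of the 14 rose, at a median of 0.65.

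Chemokines had the highest median of the 46 gene lists described. Of 22 chemokines 13 rose and 0 fell, and 20 lay above 0, with a median of 2.22 (1.07 without replicate 3). Over all genes tested 4.88% rose and 46.9% lay above 0. Beyond Cxcl3 and Ccl4, Ccl3, a monocyte attractant, stood at 129.7, 551 and 7574 CPM against 33.7 to 136. Replicate 1 was here within the range of the others, and the difference was 5.27 ± 0.84, or 2.25 without replicate 3. Cxcl2, a neutrophil attractant, was at 276, 1002 and 11010 CPM against 109 to 406 (4.19 ± 0.75, and 1.50 without replicate 3). Of 12 chemokine receptors 4 rose, among them Ccr1, a receptor of Ccl3 and Ccl9, which differed by 2.09 ± 0.44, and Ccrl2, which differed by 3.37 ± 0.66. Without replicate 3 Ccr1 was at 0.76 and Ccrl2 at 0.62.

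Agonists and antagonists of the interleukin 1 family were both among the called genes. Of 13 members 8 rose (median 1.61, and 0.54 without replicate 3). Il1a was at 40.7, 145 and 1440 CPM against 10.3 to 54.9 (4.62 ± 0.75, and 2.07 without replicate 3). Il1b was at 554, 1095 and 9502 CPM against 242 to 899, so that replicate 1 overlapped the others (2.99 ± 0.64, and 0.81 without replicate 3). Il18bp, which neutralises interleukin 18, was at 16.9, 12.5 and 18.4 CPM against 5.65 to 6.78. The groups were well apart and the ACPC-NP libraries alike, with a difference of 1.37 ± 0.25 (1.24 without replicate 3). Il1rap, the shared receptor chain, differed by 2.21 ± 0.43 (0.83).

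In the interleukin 6, 10 and 12 families 5 of 11 rose (median 1.30, and 0.57 without replicate 3). Il10, an anti-inflammatory cytokine, was at 1.38, 5.60 and 44.8 CPM against 0.575 to 1.30, a difference of 4.25 ± 0.68 (1.95 without replicate 3). Il6 was at 5.51, 22.0 and 233 CPM against 3.45 to 11.6, with replicate 1 inside that range (3.76 ± 0.75, and 1.10 without replicate 3). Il23a, Ebi3 and the feedback inhibitor Socs3 differed by 5.94 ± 0.98, 3.91 ± 0.66 and 3.70 ± 0.66, or by 2.24, 1.45 and 1.80 without replicate 3. Among osteoclast-forming and colony-stimulating cytokines and receptors 6 of 10 rose (median 1.13, and 0.58 without replicate 3). Csf1, the growth factor on which macrophages and osteoclast precursors depend, was at 56.6, 133 and 575 CPM against 18.1 to 35.8. All 3 ACPC-NP libraries lay above the others (3.31 ± 0.51, adjusted p = 0.00745, and 1.88 without replicate 3). Its receptor Csf1r was at 407, 382 and 559.7 CPM against 210.5 to 287 (0.88 ± 0.22, and 0.68 without replicate 3). Csf3, the neutrophil growth factor, was at 3.19, 31.8 and 251 CPM against 0.946 to 7.53 (4.91 ± 0.91, and 2.46 without replicate 3). Of 16 eicosanoid genes 4 rose, where 4.88% of all genes tested did. The eicosanoid median was 0.17 (0.02 without replicate 3, and -0.006 on total counts). Ptges and Ptgs2, which make prostaglandin E2, differed by 4.69 ± 0.82 and 3.31 ± 0.71, or 1.65 and 0.86 without replicate 3. Its receptor Ptger2 differed by 2.54 ± 0.51 (0.92), and replicate 1 overlapped the others in these 3 genes. Tbxas1, the thromboxane synthase, differed by 1.34 ± 0.29 (0.81) without overlap.

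Both Arg1 and Nos2, which use arginine for different products, were called. Of 9 arginine and itaconate genes 4 rose, with a median of 1.91 that was 0.07 without replicate 3. Slc7a2, which brings arginine into the cell, was at 37.0, 128 and 850.5 CPM against 7.55 to 17.99, above the others in each library (4.79 ± 0.71, and 2.75 without replicate 3). Nos2, which makes nitric oxide from arginine, was at 201, 890.1 and 6367 CPM against 100.1 to 345. Replicate 1 overlapped the others for Nos2 but not for Arg1, and the Nos2 difference was 3.59 ± 0.70 (1.40 without replicate 3).

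Lists of hypoxia, glycolysis, iron and oxidant defence genes rose in part, with smaller medians once replicate 3 was left out. Of 20 hypoxia targets 9 rose (median 1.40, and 0.25 without replicate 3), and of 19 glycolysis genes 11 rose (median 1.36, and 0.37 without it). Slc2a1, the glucose transporter, was at 112, 303 and 2506 CPM against 39.8 to 98.5, and was above the others in each ACPC-NP library (3.89 ± 0.66, and 1.65 without replicate 3). Bnip3, a mitochondrial protein of mitophagy, and P4ha1, which hydroxylates collagen prolines, differed by 3.33 ± 0.70 and 3.26 ± 0.62, or 1.51 and 1.19 without replicate 3. Ero1a, an oxidase of protein folding, was at 72.0, 148 and 1388 CPM against 53.6 to 63.2 (3.20 ± 0.57, and 0.92 without replicate 3). Vegfa, the vascular growth factor, was not called (1.74 ± 0.52, adjusted p = 0.0712, and 0.13 without replicate 3). Oxidative phosphorylation, the other route to energy, had 0 of 16 genes called in either direction and a median of 0.01 (-0.12 on total counts).

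Of 16 iron and haem genes 8 rose (median 0.57, and 0.30 without replicate 3). Fth1, the ferritin heavy chain that stores iron, was at 1658, 4569 and 49702 CPM against 1347 to 1610, and took 3.51% of all counts of replicate 3 against 0.14% to 0.467% in the other 8 libraries. Its difference was 3.68 ± 0.64, or 1.10 without that library. Hmox1, which breaks down haem, was at 163, 344 and 2037 CPM against 118 to 172, with replicate 1 inside the range (2.55 ± 0.50, and 0.80 without replicate 3). Slc11a1, a metal exporter of phagosomes, differed by 1.76 ± 0.38 (0.69 without replicate 3). In oxidative stress defence 8 of 22 rose (median 0.79, and 0.04 without replicate 3), led by Akr1b8 (3.88 ± 0.64), the mitochondrial dismutase Sod2 (2.98 ± 0.54) and Nqo1 (2.67 ± 0.52), which were at 1.88, 1.12 and 0.73 without replicate 3.

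Lists that read acute signalling or stress had medians from -0.22 to 0.15 once replicate 3 was left out, beside -0.02 over all genes. NF-kB subunits and targets rose in 7 of 15 (median 1.29, and 0.15 without it) and immediate early genes in 6 of 24 (1.08, and 0.10 without it). Dusp1, a phosphatase that ends MAP kinase signals, was at 322, 443 and 2219 CPM against 199 to 430, with replicate 1 within that range (1.78 ± 0.44, and 0.40 without replicate 3). Heat shock genes rose in 2 of 14, where 4.88% of all genes tested did. The 2 were Hspa1a and Hspa1b, near-identical copies whose reads the counting could split. Hspa1a was at 9.17, 13.9 and 256 CPM against 3.05 to 8.83. Unfolded protein and amino acid stress genes had 0 of 16 called (median 0.33, but -0.22 without replicate 3 and -0.10 by voom). Without replicate 3, 14 of the 16 lay below 0. Interferon response genes rose in 4 of 16 (median 0.55, and 0.12 without replicate 3), with Gbp2 at 41.8, 80.5 and 182 CPM against 25.6 to 38.7 (1.65 ± 0.30, and 0.91 without replicate 3).

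Some members of the checkpoint, T cell and NK lists rose, where 4.88% of all genes tested did. Among checkpoints and costimulators 5 of 13 rose (median 1.07, and 0.69 without replicate 3). Havcr2, an inhibitory receptor of T cells and macrophages, was at 13.5, 28.0 and 190.3 CPM against 7.11 to 21.1 (2.73 ± 0.57, and 0.83 without replicate 3). Icos, a costimulator of activated T cells, was at 4.37, 9.35 and 15.7 CPM against 2.41 to 4.99 (1.39 ± 0.35, and 0.88 without replicate 3). Of 8 regulatory T cell markers Il2ra and Foxp3 rose. Foxp3, the factor that defines these cells, was at 2.44, 3.27 and 4.72 CPM against 0.69 to 3.23, and overlapped the others through replicate 1. Its difference was 1.91 from PCL and 0.51 from CaP, with a mean of 1.21 ± 0.25 (0.92 without replicate 3). Of 12 T cell markers 2 rose (Cd2 and Cd8a), and of 10 NK and cytotoxic markers 3 (Ncr1, Prf1 and Gzma). The summed NK and cytotoxic level was 142, 139 and 198 CPM, inside the 125 to 205 of the 6 others. T cell and regulatory T cell sums lay above the others in replicate 3 only. Without the TMM scaling its T cell sum would lie within their range. Without replicate 3 the T cell, regulatory T cell and NK lists had 0 called, with medians of 0.31, 0.42 and 0.31. None of 7 MHC class II genes or 15 B lineage genes was called.

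Markers of the other marrow cells were, except for 1 gene, not called. Neutrophil granule, eosinophil and mast cell, erythroid, endothelial, marrow stroma, skeletal muscle and Schwann cell lists had 0 genes called in either direction. Of 6 megakaryocyte and platelet genes 1 rose, Pf4, a chemokine that macrophages also make. Over all genes tested 4.88% rose and 46.9% lay above 0. The summed neutrophil granule level was 21568, 21405 and 23170 CPM around ACPC-NP, below the 23264 to 31057 of the 6 others, and 1 of 11 genes lay above 0 (median -0.39, and -0.37 without replicate 3). Erythroid genes lay below 0 in 11 of 11, with sums of 36534, 36623 and 28945 CPM inside the range of 24866 to 56549. Without the TMM scaling the erythroid sum of replicate 3 would lie below the range of the others. No marker of any cell type list was at 0 in all 3 ACPC-NP libraries. Proliferation genes had 0 of 16 called (median -0.23, and 0.01 without replicate 3). The part of differing cell mixtures in the called genes was not tested.

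**Figure D5:**
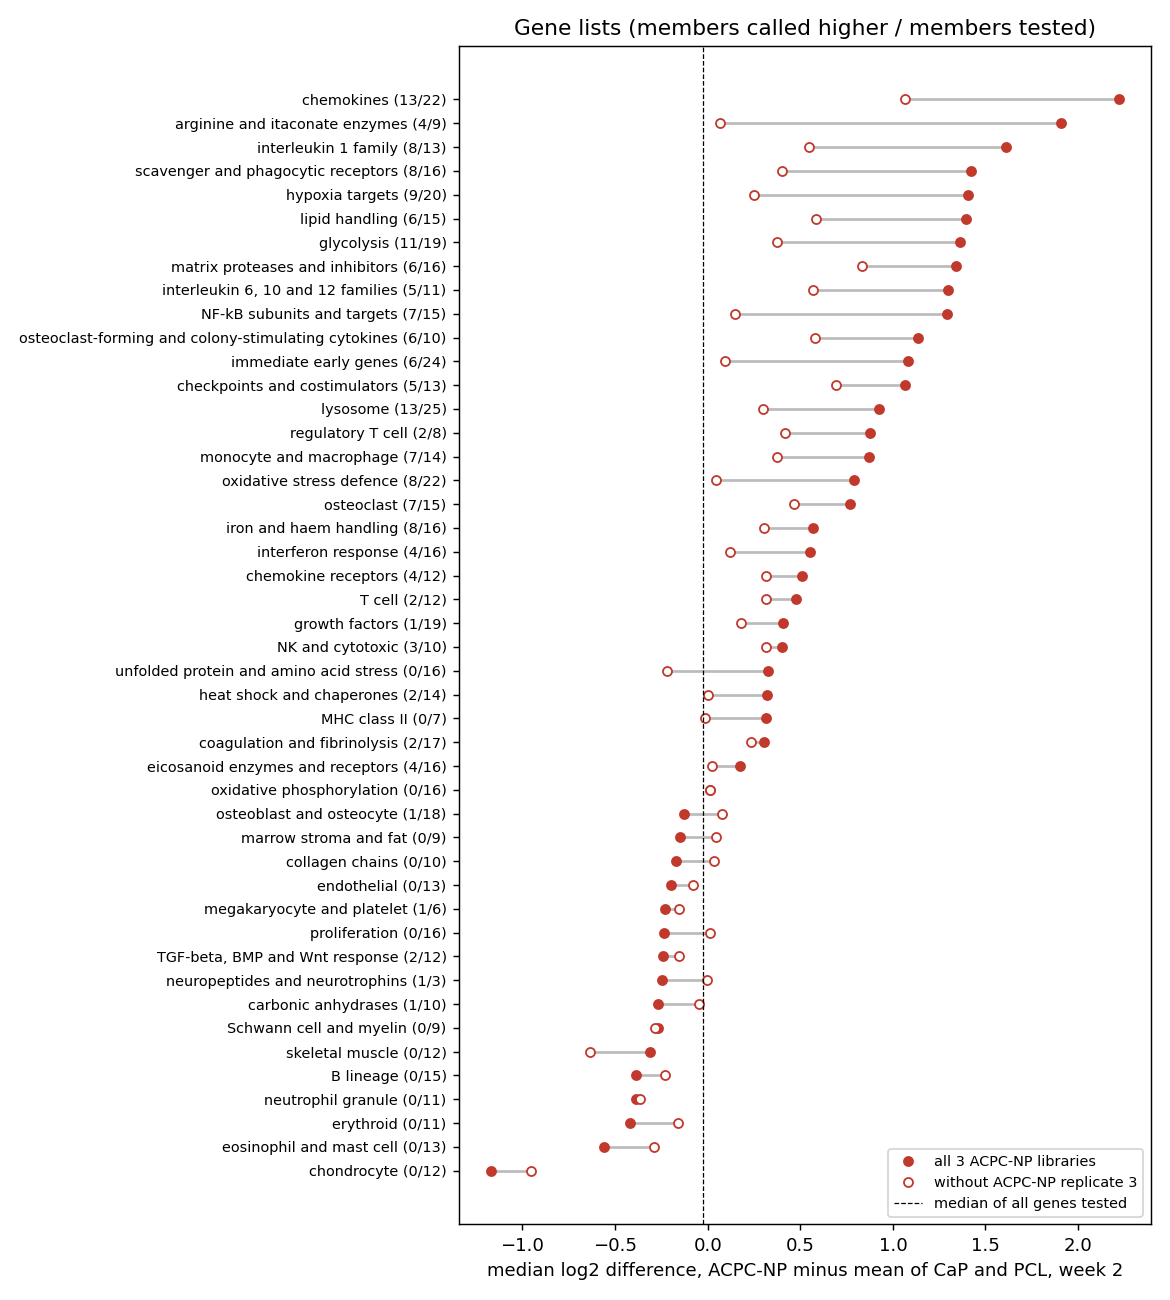
Median difference over the tested members of each gene list (log2, ACPC-NP minus the mean of CaP and PCL) with all 3 ACPC-NP libraries (filled) and without replicate 3 (open); the dashed line is the median of all genes. Numbers in brackets are members called higher and members tested; chemokines are at 2.22 and 1.07, immediate early genes at 1.08 and 0.10, and collagen chains near 0 in both.

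Large rises outside these groups included Pdpn, podoplanin, a surface glycoprotein of stromal cells and inflammatory macrophages, at 21.2, 128 and 908 CPM against 8.24 to 17.99 (4.86 ± 0.71, and 2.61 without replicate 3). Edn1, the vasoconstrictor endothelin, was at 3.11, 15.6 and 49.8 CPM against 0.575 to 2.76 (4.10 ± 0.75, and 2.81 without replicate 3). Dsc2, a desmosomal cadherin, was at 3.23, 8.79 and 86.6 CPM against 0.575 to 1.93 (4.70 ± 0.76, and 2.25 without replicate 3). In all 3 genes every ACPC-NP library was above the 6 others, which the rule that named these genes required. In all, 413 of the 577 genes stood in none of the gene lists.

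Most of the 13 genes that fell did so by little, and none of the gene lists held any of the 13. In 12 of them all 3 ACPC-NP libraries lay below all 6 others, where 2.54% of all genes tested did. Calling the 13 on these same libraries favours such separation. Padi3, which turns protein arginine into citrulline, was at 46.9, 49.2 and 37.7 CPM against 53.2 to 80.0 (-0.57 ± 0.15, adjusted p = 0.0369). Mccc1, of leucine breakdown, was at 25.7, 25.5 and 24.1 CPM against 27.7 to 34.0 (-0.28 ± 0.07), and Atg14, which starts autophagosomes, at 18.7, 18.8 and 14.8 CPM against 20.3 to 27.4 (-0.48 ± 0.13). Dtx3 was at 17.6, 21.7 and 17.6 CPM against 26.1 to 35.8 (-0.71 ± 0.18). Here the ACPC-NP libraries were close together, and without replicate 3 these 4 differed by -0.48, -0.26, -0.38 and -0.66, with none called. Fam98c, Trmt10a, Rom1, Spef1, Arhgap15 and Mpnd also fell, and Zfp692 (-1.05 ± 0.29) overlapped through PCL replicate 3. Slc22a3 (-1.57 ± 0.41) and Samd12 (-4.25 ± 1.05) fell further but rest on few counts. Samd12 had at most 0.0787 CPM in an ACPC-NP library against 0.434 to 1.21.

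Each scaffold alone gave differences of like size but no calls. ACPC-NP against CaP and against PCL share the 3 ACPC-NP libraries, so their values are set side by side only as a description. Against either scaffold edgeR called 0 genes, with 1371 higher and 487 lower at an unadjusted p under 0.05 against CaP and 1453 and 401 against PCL. The smallest adjusted p was 0.1 and 0.0712. CaP against PCL also gave 0 calls, with 128 and 55 at an unadjusted p under 0.05. Arg1 differed by 6.46 ± 1.28 from CaP and by 7.36 ± 1.35 from PCL, Gal by 2.56 ± 0.51 and 3.38 ± 0.53, and Spp1 by 2.09 ± 0.60 and 2.45 ± 0.61. Mmp12 differed by 3.71 ± 0.84 and 3.68 ± 0.84. All 577 genes were above 0 against each scaffold, as were 4673 of all 11814 genes tested. Calling genes on the mean of both scaffolds favours this.

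Whether the differences were larger at week 2 than at week 6 was tested as an interaction in the same model. At week 6 the same comparison gave 0 calls, with 1136 higher and 1285 lower genes at an unadjusted p under 0.05. The interaction gave 0 calls as well (0% of genes), with 1375 more positive and 898 more negative at week 2 at an unadjusted p under 0.05. Its smallest adjusted p was 0.132. DESeq2 called 348 and 234 and voom with quality weights 805 and 905. Spp1 was at 686 ± 379 CPM around ACPC-NP at week 6 against 735 ± 581 around the others (mean ± SD, 3 and 6 libraries), and its difference was larger by 2.30 ± 0.72 at week 2 (adjusted p = 0.153). Gal was at 0.571 ± 0.146 CPM against 0.658 ± 0.364, with an interaction of 3.15 ± 0.66 (adjusted p = 0.132). For Mmp12 the week 6 levels were 167 ± 158 and 147 ± 142 CPM (interaction 3.46 ± 0.96, adjusted p = 0.136), and for Arg1 11.2 ± 9.65 and 4.42 ± 2.55 CPM (interaction 5.53 ± 1.39, adjusted p = 0.132). Without ACPC-NP week 2 replicate 1 the interaction called 687 genes more positive and 232 more negative. Without replicate 2 of the same group, or without PCL week 6 replicate 1, it called 0 and 1, and with any other library left out 0.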

How the data were processed

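Per the labels' protocols, polyadenylated RNA was sequenced from pooled marrow and bone cells. Per the submitters' processing notes, reads were handled with bcl2fastq 2.20.0, STAR 2.7.9a, build Rnor_6.0, and featureCounts, with Subread at 2.0.1; the sources used here give neither annotation nor strand setting. The unit of the deposited table is the read count per gene symbol, not normalised; a deposited normalised table was not used. The 18 libraries hold 18880604 to 27186587 counts. Counting error is therefore small except for genes at few CPM. No library pair of a group was a duplicate.

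From these counts, edgeR 4.0.16 (R 4.3.3) kept 11814 of 17337 genes with filterByExpr (minimum count 10, minimum total 15; 99.98% of counts), scaled by TMM, and fitted robust quasi-likelihood models with a term per group over all 18 libraries (12 residual degrees of freedom). P-values were adjusted by Benjamini-Hochberg over all genes, with a threshold of 0.05. CPM are scaled to TMM library sizes. The script was tested on simulated data. Alternatives were DESeq2 1.42.0, limma 3.58.1 voom with quality weights, other scaling and filtering, other libraries in the fit, a replicate block and each library left out.

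Genes were named by rule at a mean log2 CPM of at least 1: the 12 largest separated rises, the lower genes, those with the smallest p without replicate 3, 4 members of each list with 3 or more calls, and a fixed panel. Other genes were named after their values were seen: Car4, Slc22a3 and Samd12 with few counts, the 17 genes not highest in replicate 3, the 4 called from week 2 libraries, and list members outside the rule. Values of 2 called genes are not reported here. The comparison, its members and the 46 lists were chosen with earlier results of these data known. Promoters are RefSeq sequences of build GRCr8.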

Additional observations from a re-analysis of the deposited data

Results flagged for a closer look

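Among the 116 genes named by rule or listed beside them, 7 had a CaP or PCL library that stood apart from the other 5 of these 6 at week 2 (gap to the nearest value, over the range, above Dixon's 95% critical value). Chance flags about 1 in 20 such groups, and no cause was tested. CaP replicate 3 was the highest library for Tgm1 at 3.39 CPM (next 2.22), for Tnfaip2 at 43.7 CPM (next 22.5) and for Cd14 at 303 CPM (next 159). CaP replicate 1 was the highest for Ifit3 at 99.7 CPM (next 57.3) and for Isg15 at 31.0 CPM (next 14.6). Cd274 was at 4.35 CPM in CaP replicate 2 (next 3.05) and Rom1 at 12.6 CPM in PCL replicate 1 (next 9.86). ACPC-NP replicate 1 lay below the CaP replicate 3 value for Tgm1 and Cd14, and below the CaP replicate 1 value for Ifit3 and Isg15. It lay above all 6 libraries for Cd274 and Tnfaip2.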

How the results depend on the processing

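The main fit called 577 genes higher and 13 lower. DESeq2 called 939 and 80, of which 575 and 13 were among the main calls, and voom with quality weights 684 and 205, of which 474 and 11 were. The other totals were, with the size factors of DESeq2 575 and 12, no low-count filter 564 and 5, CaP and PCL as 1 group of 6 685 and 21, and scaling to total counts alone (added after seeing the data) 434 and 14. That last scaling moved the median of all genes to -0.16 and turned the medians of the eicosanoid and oxidative phosphorylation lists below 0 (-0.006 and -0.12). Voom with quality weights turned 10 list medians, none of them of a list with more than 1 call: chondrocyte to 0.25, collagen chains to 0.20, neuropeptides to 0.14, carbonic anhydrases to 0.08, osteoblast to 0.07, marrow stroma to 0.05, endothelial to 0.05, oxidative phosphorylation to -0.04, MHC class II to -0.07 and unfolded protein to -0.10. The week 2 libraries alone put the Schwann cell list at 0.01. The week 2 libraries alone gave 4 and 0. With a library left out the counts ran from 10 to 1260 higher and from 0 to 103 lower: 1260, 909 and 10 higher without ACPC-NP replicates 1, 2 and 3, then 181, 194 and 395 with each CaP library out in turn, and 172, 377 and 259 with each PCL library out. The cause of these shifts was not tested. Added after seeing the data, DESeq2 and voom without ACPC-NP replicate 3 called 80 and 73 higher and 4 and 3 lower. The interaction with week 6 gave 348 and 234 by DESeq2, 805 and 905 by voom, and with a library left out 0 to 687 more positive and 0 to 232 more negative.

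With the replicate number as a replicate block, 237 genes were higher and 2 lower, 234 and 0 of them among the main calls, and the interaction gave 0. The labels do not say that a number pairs libraries, so the pairing was not used. Deviations of same-numbered libraries correlated between -0.262 and 0.379 over both weeks. At week 2 they correlated at 0.143 to 0.379 for replicate 1 and at -0.0513 to 0.18 for replicates 2 and 3.

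Of 106 named genes called, 106 passed by DESeq2, 101 by voom, 66 with the block, 10 without ACPC-NP replicate 3 and 3 from the week 2 libraries alone. Values that changed sign belong to genes that were not called. By voom Sp7 was at 0.13, Col1a1 at 0.21 and Bglap at 0.080. Without ACPC-NP replicate 3, DESeq2 and voom put Col1a1 at 0.15 and 0.21 and Bglap at 0.060 and 0.19, and DESeq2 put Tgfb1 at -0.048 and Bmp2 at -0.19. With a library left out Col1a1 ran from -0.42 to 0.15, Bglap from -0.49 to 0.058, Tgfb1 from -0.051 to 0.24 and Bmp2 from -0.20 to 0.24. On total counts Runx2 was at -0.11, Tgfb1 at -0.044 and Bmp2 at -0.16.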
